A study of Mus musculus with 12 samples.

Results

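The genes described here encode the calcium/calmodulin-dependent protein kinases (CaM kinases) of cortical neurons. Members were taken by symbol from the table of raw counts, and all 10 of the 10 listed symbols were among its 23893 genes. They are the CaMKII subunit genes Camk2a, Camk2b, Camk2d and Camk2g, the kinase genes Camk4, Camk1d and Camk1g, the upstream kinase genes Camkk1 and Camkk2, and Camkv. The list was set by symbol and no gene was filtered by a measured value, but it was chosen with earlier results of these data known.

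CaM kinases are serine/threonine kinases that are switched on when calcium-loaded calmodulin binds next to their catalytic domain. CaMKII forms large holoenzymes of mixed subunits, keeps part of its activity by autophosphorylation after calcium falls, and is known for its part in synaptic plasticity at glutamatergic synapses. CaMKI and CaMKIV need a further phosphate, placed on them by the CaM kinase kinases, and CaMKIV acts in the nucleus on transcription factors such as CREB.

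The 12 RNA-seq libraries came from primary cortical neuron cultures of C57BL6 mouse embryos of day 13.5 to 15.5, with 3 libraries in each of 4 groups. By the study's methods all cultures carried the floxed Top1 alleles (Top1 fl/fl), the genotype label Wild-type standing for those without CRE, and all were infected at 3 days in vitro (DIV), so that virus and floxed alleles were common to controls and deleted cells. WT-Veh cultures received a lentivirus that expresses the fluorescent protein tdTomato from the CaMKIIα promoter and, from DIV 15, vehicle (0.003% DMSO) for 3 days. WT-Topot cultures received the same virus and 300 nM topotecan, which traps topoisomerase I (TOP1) on DNA it has cut. Top1 cKO-Veh and Top1 cKO-Topot cultures received a virus that adds the recombinase CRE behind tdTomato, with vehicle or 300 nM topotecan. The viral promoter is that of Camk2a and restricts expression to neurons, and the labels put transduction at 85 to 90%, so uninfected neurons and non-neuronal cells kept their Top1 alleles. In RNA from whole cultures, fewer cells of a type and less RNA per cell cannot be told apart.

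Each library held 1730164 to 4583777 counts, WT-Veh replicate 3 being the smallest. Top1 mRNA stood at 117 to 163 CPM (counts per 1000000 of the TMM-adjusted library size) in the 6 tdTomato libraries and at 27.1 to 44.0 CPM in the 6 CRE libraries, without overlap. As a check of the neuronal label, 5 pan-neuronal markers summed to 4396 to 6583 CPM in the 12 libraries. Microglial markers summed to at most 13.5 CPM, the myelin gene Mag was at 0 in every library and the endothelial gene Cldn5 was at or near 0. Astrocyte markers (6 of 6 detected) summed to 1211 to 2884 CPM in WT-Veh and 567 to 1196 CPM in WT-Topot, and in the CRE groups to 1246 to 3331 CPM with vehicle and 586 to 1616 CPM with topotecan. Excitatory neuron markers (6 of 6) summed to 1435 to 1575, 1788 to 2106, 1326 to 1447 and 1239 to 1286 CPM in the same order. Inhibitory neuron markers (7 of 7) summed to 771 to 1699, 521 to 956, 1174 to 1359 and 884 to 1286 CPM. Libraries that share a replicate number tended to depart from the means of their groups in the same direction (correlation 0.261 to 0.485 over 13720 genes), though not for every gene. Results of the blocked fit, in which that number is a term, are given wherever they change a call.

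All 10 genes were detected in every library, with 58 to 5916 counts. Divided by exon length, Camk2a was highest in WT-Veh, at 201 ± 9.56 CPM per kb (SD, n = 3), followed by Camk2b at 173 ± 14.7 and Camkv at 159 ± 33.4 CPM per kb. The WT-Veh libraries of Camk2a and Camk2b did not overlap on this scale, whereas those of Camk2b and Camkv did. Camkk2 came next at 84.7 ± 11.7 CPM per kb and overlapped neither neighbour. Below it lay Camk4 (43.2 ± 14.8), Camk2g (38.3 ± 6.22), Camk2d (29.8 ± 8.51), Camk1d (29.2 ± 4.64) and Camk1g (26.4 ± 2.07 CPM per kb), each overlapping the next. Camkk1 was lowest at 12.4 ± 2.47 CPM per kb, below Camk1g without overlap. The order from Camk4 to Camk1g depends on the length used: divided by the longest transcript instead of all exons, Camk2d (50.0) and Camk2g (49.9) stood above Camk4 (43.6 CPM per kb). In WT-Topot the order was Camk2a, Camkv, Camk2b, Camkk2, Camk2g, Camk1g, Camk4, Camk2d, Camk1d and Camkk1. Camk1d, at 11.2 ± 3.10 CPM per kb, then overlapped Camkk1 at 9.01 ± 0.870 CPM per kb.

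**Figure D1:**
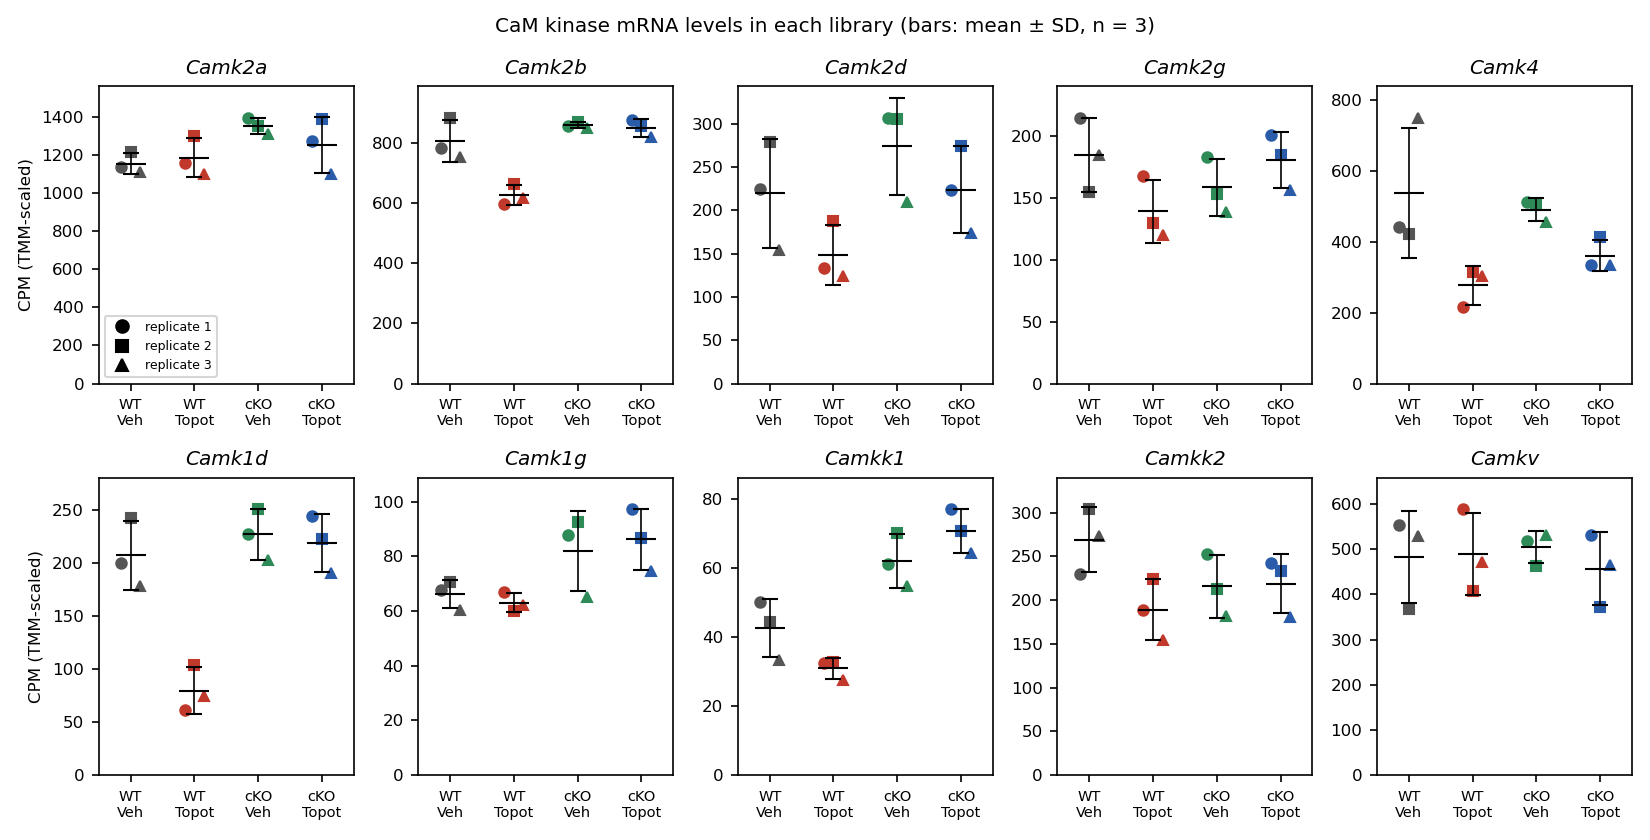
CPM (TMM-scaled) of the 10 CaM kinase genes in each of the 12 libraries, by group, with symbols for the replicate number and bars for mean ± SD (n = 3). The 3 WT-Topot points of Camk1d lie at 61.0 to 104 CPM, below all 9 other libraries, and the 6 CRE libraries of Camkk1 lie above the 6 tdTomato libraries.

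To ask how topotecan altered CaM kinase mRNA in cells with TOP1, WT-Topot was compared with WT-Veh. Camk1d, which encodes a CaMKI isoform, fell from 207 ± 32.9 to 79.7 ± 22.0 CPM and was the 1 of the 10 genes called at an FDR of 0.01. Of all 23893 genes, 2.04% were lower and 0.682% were higher by the same edgeR test. None of the 10 genes was higher, at an unadjusted p under 0.05 or by DESeq2 either. With the replicate block, 5 of the 10 genes were lower (Camk1d, Camk4, Camk2b, Camk2d and Camkk2), against 5.0% of all genes. The median log2 fold change of the 10 genes was −0.43, beside 0.029 for the 13720 genes averaging at least 1 CPM.

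Camk1d was at 200, 243 and 178 CPM in the 3 WT-Veh libraries (replicates 1 to 3) and at 61.0, 104 and 74.1 CPM in WT-Topot. The groups did not overlap, and the smallest of the 3 same-numbered differences was −1.23 on the log2 scale. The log2 fold change was −1.37 (SE 0.212, adjusted p = 2.89e-04, edgeR quasi-likelihood test), and leaving out each library in turn gave −1.61 to −1.21, called in 6 of 6 fits.

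Camk4 encodes CaMKIV, the nuclear kinase of CREB. It was at 443, 421 and 750 CPM in WT-Veh and at 215, 315 and 304 CPM in WT-Topot. WT-Veh replicate 3 stood well above the other libraries of its group, but the groups did not overlap. The log2 fold change of −0.95 (SE 0.218, edgeR adjusted p = 0.0119) missed the threshold and passed it with the replicate block (−0.92, adjusted p = 1.33e-10). Without WT-Veh replicate 3 it was −0.63, with an adjusted p of 0.0343. The annotated first exon of Camk4 overlaps a lincRNA gene on the opposite strand (2310026I22Rik), and whether reads were counted by strand is not given in the sources used here.

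Among the CaMKII genes, the log2 fold change nearest to 0 was that of Camk2a, at 0.042. Camk2a, the main forebrain subunit, was at 1139, 1217 and 1112 CPM in WT-Veh and at 1157, 1301 and 1101 CPM in WT-Topot. These ranges overlapped, and the 95% interval of the log2 fold change was −0.27 to 0.36. Camk2b, the subunit that also binds actin filaments, was at 784, 885 and 754 CPM in WT-Veh and at 599, 666 and 619 CPM in WT-Topot. Here the groups did not overlap. The log2 fold change of −0.36 (SE 0.156, adjusted p = 0.301) was called with the replicate block (−0.36, edgeR adjusted p = 0.00681).

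Camk2d, a subunit gene expressed in many tissues, was at 225, 279 and 154 CPM in WT-Veh and at 133, 188 and 124 CPM in WT-Topot. The ranges overlapped, but each topotecan culture lay below the vehicle culture of its number, by 0.31 to 0.76 on the log2 scale. This gave −0.56 on the log2 scale (SE 0.219, adjusted p = 0.215; with the replicate block −0.55, SE 0.129, adjusted p = 7.45e-04). Camk2g stood at 185 ± 30.0 and 139 ± 25.3 CPM, a log2 fold change of −0.40 that passed neither fit (adjusted p = 0.385 and, with the block, 0.0289). The sums of astrocyte markers given above were lower in WT-Topot than in WT-Veh, and their part in the values of Camk2d and Camk2g was not tested.

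Of the upstream kinases, Camkk2, which also phosphorylates the energy sensor AMPK, was at 230, 304 and 274 CPM in WT-Veh and at 189, 224 and 155 CPM in WT-Topot. The groups did not overlap, and its log2 fold change of −0.50 (SE 0.188, adjusted p = 0.183) was called with the replicate block (edgeR adjusted p = 0.00152). Camkk1 was at 50.0, 44.3 and 33.4 CPM and at 32.5, 32.6 and 27.4 CPM, again without overlap. Its log2 fold change of −0.47 (SE 0.229) passed neither fit (adjusted p = 0.412 and, with the block, 0.134).

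Camk1g and Camkv gave the smallest differences beside Camk2a. Camk1g, a CaMKI isoform found mainly in brain, was at 66.2 ± 5.19 and 63.1 ± 3.56 CPM, a log2 fold change of −0.066 (95% interval −0.47 to 0.34). Camkv encodes a kinase-like protein of dendritic spines without known kinase activity. It was at 483 ± 101 and 489 ± 91.4 CPM, a log2 fold change of 0.027 (95% interval −0.37 to 0.42).

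**Figure D2:**
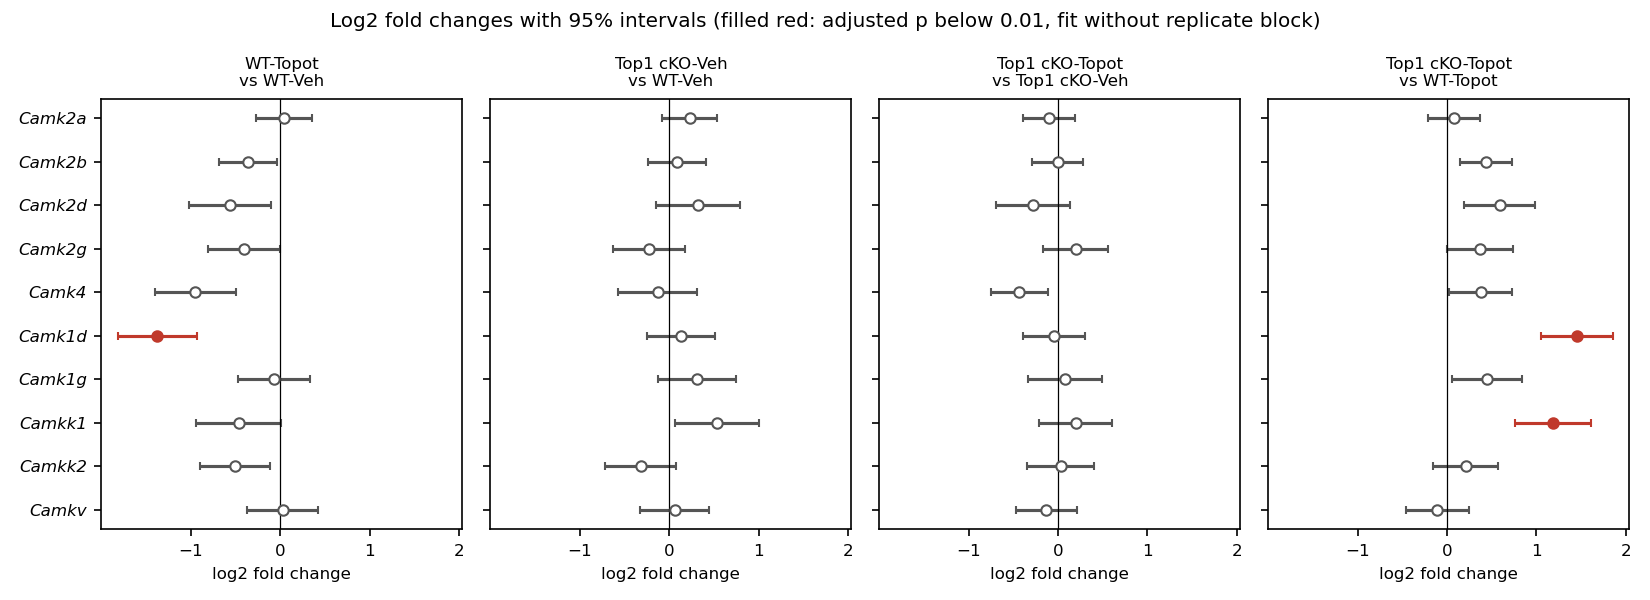
Log2 fold changes of the 10 genes (points) with 95% intervals (bars) in 4 comparisons, from the edgeR fits without replicate block. Filled red points mark an adjusted p below 0.01: Camk1d in WT-Topot vs WT-Veh, and Camk1d and Camkk1 in Top1 cKO-Topot vs WT-Topot.

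The 3 longest members had the log2 fold changes farthest below 0 in WT cells, in the order of their lengths. Camk1d spans 421 kb of chromosome 2 (5214503 to 5635561, minus strand, mm9), Camk4 spans 257 kb of chromosome 18 (33098695 to 33355421, plus strand) and Camk2d spans 249 kb of chromosome 3 (126299220 to 126547972, plus strand). Their log2 fold changes were −1.37, −0.95 and −0.56. Camk2b on chromosome 11 (5869647 to 5966365, minus strand) spans 96.7 kb, and Camk2a on chromosome 18 (61085272 to 61147806, plus strand) spans 62.5 kb. The 5 shorter genes are Camk2g (59.2 kb), Camkk2 (46.2 kb), Camk1g (24.0 kb), Camkk1 (23.1 kb) and Camkv (13.8 kb), with log2 fold changes from −0.50 to 0.027. Over the 1955 genes longer than 100 kb with at least 1 CPM, the median log2 fold change was −0.43, and all 3 lay below that median, as did the shorter Camkk2 (−0.50) and Camkk1 (−0.47). The place of Camk2d depends on the libraries: without WT-Veh replicate 2 its log2 fold change was −0.35, and over all 6 fits with 1 library left out it ranged from −0.77 to −0.35.

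**Figure D3:**
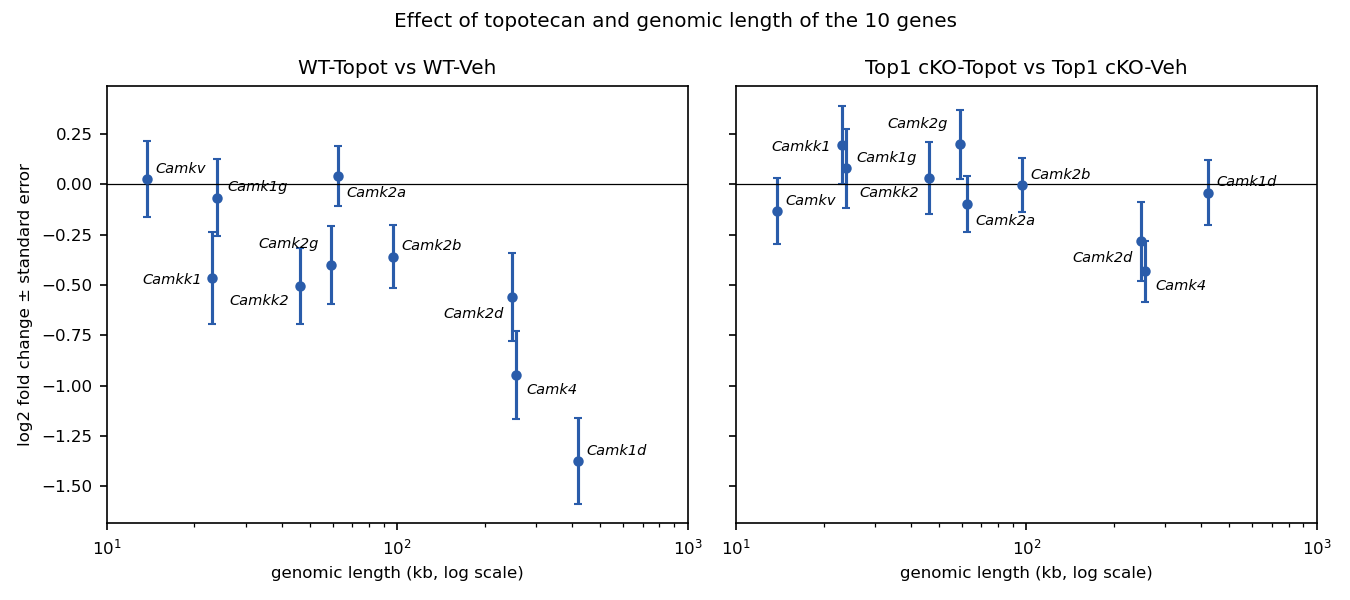
Log2 fold change after topotecan (± edgeR standard error) against the genomic length of the 10 genes in kb (log axis), in WT cells (left) and Top1 cKO cells (right). In WT cells Camk2d, Camk4 and Camk1d lie lowest, at −0.56, −0.95 and −1.37; in Top1 cKO cells Camk1d lies at −0.041.

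To ask what loss of TOP1 itself did, Top1 cKO-Veh was compared with WT-Veh. None of the 10 genes was called in either direction by edgeR at an FDR of 0.01, where 0.126% of all genes were lower and 0.046% were higher. With the replicate block 0 were called as well, against 2.95% of all genes lower and 2.6% higher, and DESeq2 called 0. At an unadjusted p under 0.05 there were 0 lower and 1 higher, Camkk1, beside 1152 lower and 932 higher of 23893 genes. The median log2 fold change of the 10 genes was 0.11 (−0.0033 for all genes with at least 1 CPM).

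Camkk1 was at 61.0, 70.1 and 54.6 CPM in Top1 cKO-Veh, above the 33.4 to 50.0 CPM of WT-Veh without overlap. This was a log2 fold change of 0.53 (SE 0.223, adjusted p = 0.466; with the replicate block 0.54, adjusted p = 0.0229). Camk2a, whose promoter drives the virus, was at 1396, 1355 and 1313 CPM, also above every WT-Veh library. That difference of 0.23 on the log2 scale (95% interval −0.080 to 0.54) passed neither fit (adjusted p = 0.812 and, with the block, 0.103).

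None of the genes that were called lower after topotecan in WT cells, with or without the block, was called after deletion. Camk1d was at 227, 251 and 203 CPM in Top1 cKO-Veh, a log2 fold change of 0.13 (95% interval −0.25 to 0.52). Camk4 was at 514, 505 and 455 CPM, a log2 fold change of −0.13 (95% interval −0.57 to 0.31), which turned to 0.19 without WT-Veh replicate 3. Camk2b stood at 860 ± 10.1 CPM, with log2 fold change 0.091 (95% interval −0.23 to 0.41). Camk2d stood at 274 ± 55.6 CPM (0.32, interval −0.15 to 0.79) and Camkk2 at 216 ± 35.7 CPM (−0.32, interval −0.71 to 0.081). For Camk2g, Camk1g and Camkv the log2 fold changes were −0.22, 0.31 and 0.063, with adjusted p from 0.841 to 1.

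To ask whether topotecan acted on these genes where Top1 was deleted, Top1 cKO-Topot was compared with Top1 cKO-Veh. The edgeR test called 0 of the 10 genes lower and 0 higher, where 0.00837% of all genes were lower and 0.0% higher. At an unadjusted p under 0.05, 1 was lower and 0 were higher, beside 627 lower and 404 higher of 23893 genes, and DESeq2 called 0 of the 10. With the replicate block 1 of the 10 was lower, Camk4, against 1.74% of all genes. The median log2 fold change of the 10 genes was −0.022.

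Camk4 was at 335, 413 and 336 CPM in Top1 cKO-Topot, below the 455 to 514 CPM of Top1 cKO-Veh without overlap. The log2 fold change was −0.43 (SE 0.153, adjusted p = 0.783; with the replicate block SE 0.0831 and adjusted p = 3.45e-05). Camk1d was at 244, 223 and 190 CPM, overlapping its vehicle libraries, with a log2 fold change of −0.041 (95% interval −0.39 to 0.31). Camk2b was at 879, 857 and 820 CPM, with −0.0022 (95% interval −0.29 to 0.28). Camk2d stood at 224 ± 50.0 CPM, a log2 fold change of −0.28 (adjusted p = 1; with the block 0.0677). The astrocyte markers summed to 586 to 1616 CPM in these libraries and to 1246 to 3331 CPM in Top1 cKO-Veh, and these ranges overlap, unlike those of WT-Veh and WT-Topot. Any part of the astrocyte shift in the values of Camk4 and Camk2d was not tested. The other members had log2 fold changes of −0.10 (Camk2a), 0.20 (Camk2g), 0.079 (Camk1g), 0.20 (Camkk1), 0.031 (Camkk2) and −0.13 (Camkv), each with an adjusted p of 1 by edgeR and not called with the block.

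The effect of topotecan in the 2 genotypes was compared directly by the interaction term over all 12 libraries. For Camk1d the effect in Top1 cKO cells minus that in WT cells was 1.32 on the log2 scale (SE 0.271, edgeR adjusted p = 0.0143), above the threshold of 0.01, and with the replicate block it was called (1.34, SE 0.175, adjusted p = 2.55e-07). Without the block 0 of the 10 genes passed, where 0.398% of all genes were higher. At an unadjusted p under 0.05, 3 of the 10 were higher and 0 lower, beside 1093 and 873 of 23893 genes. DESeq2 called 1 higher, beside 275 of 18705 genes. With the block 1 of 10 passed, against 2.44% of all genes. For Camk4 the term was 0.51 (SE 0.283, adjusted p = 0.747) and for Camk2b 0.35 (SE 0.184, adjusted p = 0.698), and neither passed with the block. Nor did Camk2d (0.27, adjusted p = 1; with the block 0.565) or Camkk2 (0.53, adjusted p = 0.628; with the block 0.0452), which the blocked fit called lower in WT cells. The term was 0.60 for Camk2g, 0.66 for Camkk1, 0.14 for Camk1g, −0.15 for Camk2a and −0.16 for Camkv, none of them called. A difference between genotypes was thus shown for Camk1d alone of the 10 genes, and there with the block or by DESeq2.

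The topotecan-treated groups were also compared with each other. In Top1 cKO-Topot, 2 of the 10 genes were higher than in WT-Topot (Camk1d and Camkk1), where 1.46% of all genes were higher and 1.03% were lower. None of the 10 was lower, at an unadjusted p under 0.05 or by DESeq2 either. The log2 fold change of Camk1d was 1.45 (SE 0.195, edgeR adjusted p = 4.23e-05). That of Camkk1 was 1.19 (SE 0.206, adjusted p = 7.52e-04), from 32.5, 32.6 and 27.4 CPM in WT-Topot to 76.9, 70.7 and 64.3 CPM in Top1 cKO-Topot. With the replicate block 5 of 10 were higher, against 4.6% of all genes, the added genes being Camk2b (0.44, adjusted p = 8.61e-05), Camk2d (0.59, adjusted p = 9.35e-05) and Camk4 (0.39, adjusted p = 0.00589). The rest were not called in either fit, at 0.45 for Camk1g, 0.37 for Camk2g, 0.21 for Camkk2, 0.077 for Camk2a and −0.11 for Camkv. These values share the WT-Topot libraries with the first comparison.

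Against Top1 cKO-Veh, WT-Topot was lower in 3 of the 10 genes, where 1.23% of all genes were lower. They were Camk1d (−1.51, SE 0.199, edgeR adjusted p = 2.57e-04), Camk4 (−0.82, SE 0.170, adjusted p = 0.00981) and Camkk1 (−1.01, SE 0.207, adjusted p = 0.00940). With the replicate block 5 of 10 were lower, Camk2b (−0.45) and Camk2d (−0.89) being added, against 4.8% of all genes. Camk2a, Camk2g and Camkk2 (each −0.19), Camk1g (−0.39) and Camkv (−0.040) were not called. Camk4 and Camkk1 lay close to the threshold and lost the call with a filter on low counts (adjusted p = 0.0164 and 0.0108), Camk4 also with all 12 libraries in 1 fit (0.0243). They also lost it without WT-Topot replicate 1, WT-Topot replicate 3 or Top1 cKO-Veh replicate 2 (Camk4 adjusted p = 0.0620, 0.0195 and 0.0349; Camkk1 0.0268, 0.0530 and 0.0678), and Camkk1 also without WT-Topot replicate 2 (0.0205).

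Camkk1 thus had its lowest mean in WT-Topot and its highest in Top1 cKO-Topot. Its 6 CRE libraries ranged from 54.6 to 76.9 CPM and its 6 tdTomato libraries from 27.4 to 50.0 CPM, with no overlap. The 12 libraries held 58 counts at the lowest for this gene, a Poisson counting error of 13.1%. The virus carries the CaMKIIα promoter in both arms, and CRE and the loss of TOP1 cannot be told apart in this design.

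The balance of the 2 main CaMKII genes was followed as the log2 ratio of Camk2a to Camk2b counts within a library, which no scaling factor touches. In WT-Veh it was 0.54, 0.46 and 0.56, and in WT-Topot 0.95, 0.97 and 0.83. Every WT-Topot library thus lay above every other library. The WT means were 0.52 ± 0.0526 with vehicle and 0.92 ± 0.0744 with topotecan, and the Top1 cKO means 0.66 ± 0.0416 and 0.55 ± 0.138 (SD, n = 3).

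The WT-Topot mean exceeded that of WT-Veh by 0.40, or 0.27 to 0.51 within replicate numbers (p = 0.1, exact permutation test, two-sided, the smallest p that 3 against 3 allows). Deletion alone gave 0.14 over WT-Veh, without overlap (p = 0.1, exact permutation test). Topotecan in Top1 cKO cells gave −0.10, with overlapping libraries (p = 0.3, exact permutation test). After division by exon length, Camk2a made up 45.6 ± 1.03% of CaMKII CPM per kb in WT-Veh and 53.0 ± 0.715% in WT-Topot, and Camk2b 39.0 ± 1.07% and 34.5 ± 1.48%. Summed over the 4 genes, CaMKII mRNA in WT cells was 2368 ± 166 CPM with vehicle and 2102 ± 165 CPM with topotecan, and in Top1 cKO cells 2647 ± 120 and 2511 ± 235 CPM. The sums of WT-Veh and WT-Topot overlapped (log2 difference −0.17, p = 0.2, exact permutation test). Of the 10 such tests on the ratio and the sum, none can pass a threshold of 0.05 with 3 libraries in a group.

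**Figure D4:**
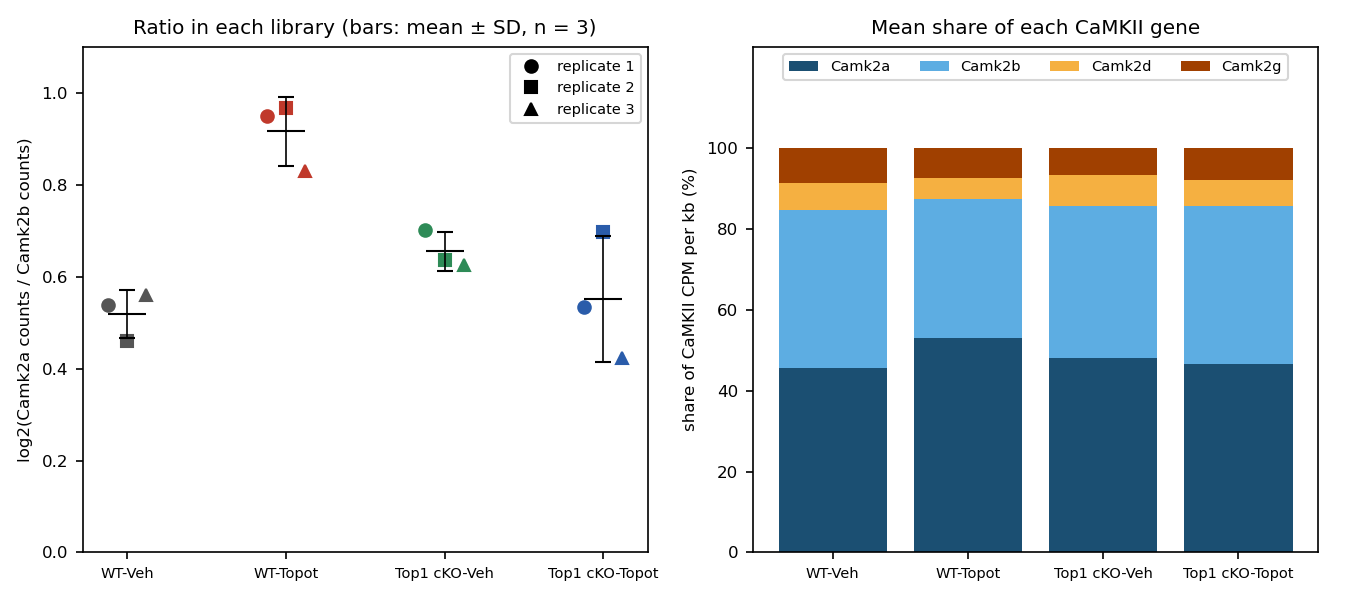
Left, log2 ratio of Camk2a to Camk2b counts in each library by group, with mean ± SD (n = 3). Right, the mean share of each CaMKII gene in the summed CPM per kb of exon (%); the WT-Topot ratios lie at 0.83 to 0.97, above the other 9 libraries, and the Camk2a share is 45.6% in WT-Veh and 53.0% in WT-Topot.

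Levels over the 12 libraries were also compared gene by gene, as Pearson's r of log2(CPM + 1) with the 9507 genes of at least 10 CPM. These r are descriptions over 12 libraries that share treatments and replicate numbers. Camk1d and Camk2b were each the closest gene to the other (r = 0.982), with log2 fold changes of −1.37 and −0.36 after topotecan in WT cells. Camk1d was next closest to Spock1 (0.980) and Ntrk3 (0.976), and Camk2b to Aff3 (0.982) and Hivep1 (0.971). Camk4 was closest to Spock3 (0.912), Slc35f1 (0.910) and Arl15 (0.909), genes of 363 to 421 kb. Camkk1 was closest to Sipa1l2 (0.974), Fam219a (0.967) and Fbxl16 (0.933), while Camk2a was closest to Ywhag (0.891), Map1b (0.887) and Abat (0.883).

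For the other members, high r was found for Cpeb4 (0.950) and Rnf165 (0.935) with Camk2d, and r was highest for Zfp707 (0.874), Ssr3 (0.871) and Per1 (0.870) with Camk2g. It was highest for Fam160a2 (0.915), Tbcel (0.915) and Brsk2 (0.901) with Camk1g, for Spsb4 (0.891), Pde4dip (0.885) and Bsn (0.878) with Camkk2, and for March2 (0.896), Chmp1a (0.896) and Cyp1b1 (0.885) with Camkv. Among the members, Camkk1 was nearest to Camk1g (0.867) and Camk2b (0.855), and Camkv had a negative r with 8 of the other 9.

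**Figure D5:**
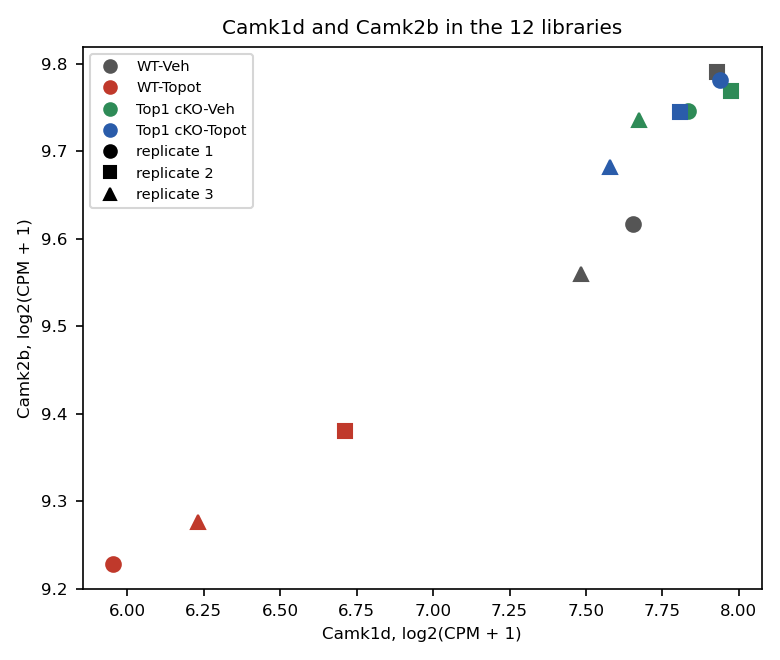
Camk2b against Camk1d in the 12 libraries, both as log2(CPM + 1), coloured by group with symbols for the replicate number. The 3 WT-Topot libraries lie apart at the lower left and the other 9 lie together at the upper right (r = 0.982 over all 12).

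The promoters of Camk1d and Camk2b are shown because their levels over the 12 libraries had the highest r among the members, and that of Camkk1 because it stood higher in the CRE libraries. Each is the 250 bases before a RefSeq transcription start on GRCm38.p6, read 5′ to 3′ on the strand of the gene. Capitals mark the letters GGGCGG (GC box), TGACG (the core of the CRE element bound by CREB) and CCAAT, on either strand; TATAAA was searched too and TGACGTCA, the full CRE element, which contains TGACG.
Camk1d (chr2:5714763-5715012, minus strand): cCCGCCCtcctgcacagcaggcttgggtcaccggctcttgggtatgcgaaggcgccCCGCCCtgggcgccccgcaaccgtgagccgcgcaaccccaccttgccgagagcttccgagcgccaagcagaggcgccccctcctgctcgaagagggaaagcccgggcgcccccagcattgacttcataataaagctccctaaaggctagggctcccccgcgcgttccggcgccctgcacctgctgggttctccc
Camk2b (chr11:6065749-6065998, minus strand): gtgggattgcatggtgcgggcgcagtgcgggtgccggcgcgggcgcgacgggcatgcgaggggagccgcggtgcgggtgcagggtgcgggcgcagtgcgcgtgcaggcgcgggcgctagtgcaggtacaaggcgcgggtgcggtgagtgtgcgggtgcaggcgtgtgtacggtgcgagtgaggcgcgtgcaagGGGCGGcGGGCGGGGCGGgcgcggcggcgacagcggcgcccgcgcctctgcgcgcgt
Camkk1 (chr11:73018738-73018987, plus strand): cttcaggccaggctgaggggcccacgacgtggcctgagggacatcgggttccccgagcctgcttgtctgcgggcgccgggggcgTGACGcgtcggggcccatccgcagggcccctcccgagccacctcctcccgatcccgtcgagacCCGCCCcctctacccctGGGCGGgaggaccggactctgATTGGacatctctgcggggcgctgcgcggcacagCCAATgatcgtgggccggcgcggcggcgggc
The G and C share of these windows was 69.2%, 78.4% and 74.4%, beside a median of 52.4% over all 32851 promoters of the table, and they held 22, 44 and 29 CpG. The Camk1d window held 2 GC boxes, that of Camk2b 3 and that of Camkk1 2, and 32.7% of all promoters held at least 1. The Camkk1 window also held 1 TGACG and 2 CCAAT, found in 17.8% and 33.8% of all promoters, and neither was found in the other windows shown. TATAAA (12.4% of all promoters) and TGACGTCA (1.5%) were in none of the 3. Camk1d has a further RefSeq start at chr2:5676047-5676296 with 48.4% G and C, 5 CpG and 1 GC box. Which start gave the counts was not measured.

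Genes that act with the CaM kinases were counted by list in the WT-Topot vs WT-Veh comparison. In the list of synaptic targets and anchors of CaMKII, 7 of 16 genes were lower and 0 higher (9 lower with the replicate block). Of all genes 2.04% were lower, or 5.0% with the block. The median log2 fold change of the list was −0.54 (0.029 for all genes with at least 1 CPM). Of the 1955 genes over 100 kb with at least 1 CPM, 352 were lower, or 666 with the block. Their median without the block was −0.43, and any part of gene length in the list's values was not tested. Kcnd2, an A-type potassium channel, went from 138 ± 38.8 to 26.5 ± 4.65 CPM (−2.39, SE 0.236, adjusted p = 2.04e-06). Kalrn, an exchange factor for small GTPases in spines, went from 277 ± 41.2 to 74.6 ± 7.25 CPM (−1.88, adjusted p = 2.60e-06). Lrrc7, which encodes the postsynaptic scaffold densin, went from 70.9 ± 15.1 to 10.9 ± 4.72 CPM (−2.69, adjusted p = 5.79e-06).

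Among other calmodulin-dependent or CaMK-like kinases 1 of 11 detected genes was lower and 1 higher. For this list and those below, 2.04% of all genes were lower and 0.682% higher without the block. Of the 13720 genes averaging at least 1 CPM, 488 were lower and 163 higher. Cask, a scaffold with a CaM kinase domain, went from 144 ± 15.2 to 55.9 ± 20.7 CPM (−1.36, adjusted p = 9.20e-04), and Dclk3 from 20.6 ± 10.7 to 59.1 ± 10.7 CPM (1.51, adjusted p = 0.00322). Camk1, a CaMKI gene of the list, was at 31.8 ± 8.48 and 25.0 ± 13.7 CPM (−0.35, adjusted p = 0.870). In calcineurin, the phosphatase that opposes these kinases, 2 of 7 detected genes were lower: the catalytic subunit Ppp3ca (327 ± 33.3 to 118 ± 35.6 CPM, −1.47, adjusted p = 1.03e-04) and the regulator Rcan2 (203 ± 51.5 to 103 ± 16.6 CPM, −0.97, adjusted p = 0.00794). Of 16 nuclear targets 1 was lower, the deacetylase gene Hdac9 (362 ± 34.1 to 92.1 ± 23.1 CPM, −1.97, adjusted p = 2.94e-06), and of 7 AMPK genes 1 was higher, Prkaa1 (34.3 ± 3.75 to 76.9 ± 2.42 CPM, 1.16, adjusted p = 0.00102). The median log2 fold changes were −0.35 for the kinases, −0.43 for calcineurin, −0.054 for the nuclear targets and −0.24 for AMPK. With the replicate block the calls were 3 lower and 1 higher for the kinases, 3 lower and 1 higher for the nuclear targets, and 1 lower and 1 higher for AMPK, where the block called 5.0% of all genes lower and 3.24% higher.

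No gene of the calmodulin list (7 genes, median 0.029) or of the inhibitors and phosphatases (7 genes, median −0.21) was called without the block. With it, 1 calmodulin-list gene was lower and 2 were higher, and 1 inhibitor or phosphatase gene was lower, beside 5.0% of all genes lower and 3.24% higher. The calmodulin genes Calm2 and Calm3 had log2 fold changes of −0.14 and −0.073. The CaMKII inhibitor genes Camk2n1 and Camk2n2 had −0.29 (adjusted p = 0.580) and −0.72 (adjusted p = 0.0431), and Camk2n2 was called lower with the replicate block (−0.73, edgeR adjusted p = 1.61e-05).

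After deletion alone, and after topotecan in deleted cells against their own vehicle, edgeR called 0 of the 73 genes of these 7 lists without the block. At an unadjusted p under 0.05 there were 17 lower and 3 higher after deletion, beside 1152 and 932 of 23893 genes. After topotecan in deleted cells there were 8 lower and 2 higher, beside 627 and 404 of 23893 genes. DESeq2 called 3 and 1 lower in these comparisons, beside 160 of 17930 and 44 of 17854 genes. The fit of all 12 libraries called 1 lower after deletion, beside 54 of 23893 genes. With the block, 12 were lower and 6 higher after deletion (2.95% and 2.6% of all genes), and 7 lower and 2 higher after topotecan in deleted cells (1.74% and 0.858% of all genes). These included 8 of the 16 synaptic targets, lower after deletion (median −0.59), and 4 lower after topotecan in Top1 cKO cells (median −0.14). Of the 1955 genes over 100 kb with at least 1 CPM, the block called 232 lower after deletion. It called 213 of them lower after topotecan in Top1 cKO cells. In Top1 cKO-Topot vs WT-Topot, Camk2n1 was higher (1939 ± 276 against 990 ± 74.4 CPM, 0.96, adjusted p = 1.20e-04). So were Cask (1.20, adjusted p = 0.00107), Ppp3ca (0.99, adjusted p = 0.00175), the AMPA receptor gene Gria1 (1.13, adjusted p = 3.67e-04) and the calcium channel gene Cacna1c (1.40, adjusted p = 0.00440), where 1.46% of all genes were higher. With the block 23 of the 73 genes were higher and 6 lower, beside 4.6% and 4.08% of all genes. In WT-Topot vs Top1 cKO-Veh, 5 of 16 synaptic targets were lower, led by Gria1 (−1.54, adjusted p = 1.24e-04), Kcnd2 (−1.61, adjusted p = 6.62e-04) and Cacna1c (−1.77, adjusted p = 8.83e-04), together with Cask (−1.68) and Ppp3ca (−1.21). Without the block 1.23% of all genes were lower in this comparison, and 220 of the 1955 genes over 100 kb with at least 1 CPM. With the block, 20 of the 73 genes were lower and 4 higher, beside 4.8% and 2.93% of all genes. By the interaction term, Kalrn alone of the 73 genes was called without the block (1.52, SE 0.226, edgeR adjusted p = 0.00121). RLE scaling gave 3 calls, DESeq2 8 and the block 14, all of them positive, and the block gave 2 negative calls. Of all genes, the block called 2.44% positive and 1.53% negative, and the fit without it 0.398% positive. RLE scaling called 116 of 23893 genes positive, and DESeq2 275 of 18705.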

How the data were processed

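RNA-seq was performed on poly(A) RNA from 12 cortical neuron cultures, 3 per group. The tools named by the authors are TagDust for cleaning the reads and TopHat, unmodified, for mapping to mm9, and rRNA reads were not kept. They deposited unnormalized read counts per gene symbol, taken over the exons of RefSeq. The counting program and its use of strand are not given in the sources used here.

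From the deposited counts (1730164 to 4583777 per library, where 1 CPM is 1.74 to 4.37 counts), edgeR 4.0.16 in R 4.3.3 was run with TMM scaling and the quasi-likelihood test (glmQLFit, glmQLFTest) on the 6 libraries of each comparison, and on all 12 for the interaction. No gene was filtered, and the Benjamini-Hochberg adjustment covered all 23893 genes, with an FDR of 0.01. The fit of WT-Topot vs WT-Veh was run, with and without the block, on simulated counts with the same dispersion for every gene. That run does not show how the fits behave where the dispersion differs between genes. Groups and replicate numbers came from the sample titles. Over 13720 genes, deviations from group means correlated at 0.261 to 0.485 in the 18 pairs of libraries sharing a number. For this reason the number was used as a block in an alternative fit. The 36 other pairs, at −0.384 to −0.0494, add no separate support, because deviations from a group's own mean cancel within the group. The labels do not say what a number stands for, so the spread between these cultures may be technical. The edgeR test moderates each gene's spread with that of all genes. The blocked fit of 6 libraries leaves little spread per gene to estimate, so its p-values lean mostly on that shared spread. For topotecan in Top1 cKO cells it called 415 genes lower, against 2 without the block. Its small p-values therefore do not measure the spread of a gene between these cultures alone.

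Alternatives were RLE scaling, filterByExpr, all 12 libraries in 1 fit, DESeq2 1.42.0, an FDR of 0.05 and leaving out each library. The ratio of Camk2a to Camk2b and summed CaMKII were compared by exact permutation tests. Gene spans and exon lengths came from GENCODE vM1 on NCBIM37, the assembly mm9 names, and promoters from RefSeq on GRCm38.p6, where 7 of the 10 genes had an entry outside the chromosome of Camk2a and Camk4. Camk2g had none. All 10 genes are named in every comparison. From each list of related genes, up to 3 called genes with the lowest adjusted p are named per comparison, with Calm2, Calm3, Camk1, Camk2n1 and Camk2n2 whatever their values, and for likeness the 3 genes of highest r. Some of the related and like genes that these rules name are not reported here. The members and lists were chosen with earlier results of these data known.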

Additional observations from a re-analysis of the deposited data

Results flagged for a closer look

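The effect of topotecan was set side by side in the 2 genotypes. It passed a test of the difference for 1 of the 10 genes, with the block, where 2.44% of all genes were higher and 1.53% lower. It had opposite signs in every replicate number for 2 more, and the share of all genes with such signs was not counted. For Camk1d the effect in Top1 cKO cells minus that in WT cells was 1.32 on the log2 scale, called by the edgeR interaction test with the replicate block (adjusted p = 2.55e-07) and not without it (adjusted p = 0.0143).

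For Camk2g and Camkk1 topotecan cultures lay below the vehicle culture of the same number in all 3 WT pairs and above it in all 3 Top1 cKO pairs. For Camkk1 the Top1 cKO pair of replicate 2 differed by only 0.014 on the log2 scale (70.1 CPM with vehicle, 70.7 CPM with topotecan). The difference between the genotypes was 0.60 for Camk2g (edgeR adjusted p = 0.492, with the replicate block 0.0149) and 0.66 for Camkk1 (adjusted p = 0.486, with the block 0.0768), so that neither passed an FDR of 0.01. With 3 libraries in a group, no library was tested for standing apart from its group.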

How the results depend on the processing

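The count of CaM kinase genes lower in WT-Topot than in WT-Veh was 1, and it was 2 with all 12 libraries in 1 fit, by DESeq2 and at an FDR of 0.05, Camk4 being added. It was 1 to 2 with each library left out. The count lower in WT-Topot against Top1 cKO-Veh was 3, 1 with filterByExpr, 2 with all 12 libraries in 1 fit, 4 by DESeq2 and at an FDR of 0.05, and 1 to 4 with each library left out. The count with a higher interaction term was 0, 1 by DESeq2 and at an FDR of 0.05 (Camk1d), and 0 to 1 with each library left out. The replicate block gave 5 lower after topotecan in WT cells, 1 lower after topotecan in Top1 cKO cells, 5 higher in Top1 cKO-Topot against WT-Topot, 5 lower in WT-Topot against Top1 cKO-Veh and 1 for the interaction, and it changed no other call of these genes. RLE scaling changed none of these counts. Of 710 single-gene log2 fold changes under the alternatives, 658 kept their direction and side of the threshold and 18 changed sign. All 18 came from leaving out a library and none was called. They belong to these log2 fold changes, with their ranges when each library was left out: in WT-Topot vs WT-Veh, Camk2a −0.028 to 0.086 and Camkv −0.14 to 0.14; in Top1 cKO-Veh vs WT-Veh, Camk4 −0.28 to 0.19 and Camkv −0.10 to 0.17; in Top1 cKO-Topot vs Top1 cKO-Veh, Camk2b −0.036 to 0.024, Camk1d −0.14 to 0.050, Camk1g −0.057 to 0.17 and Camkk2 −0.075 to 0.16; in Top1 cKO-Topot vs WT-Topot, Camk2a −0.0075 to 0.17 and Camkv −0.24 to 0.053; and in WT-Topot vs Top1 cKO-Veh, Camkv −0.19 to 0.094. Apart from the settings themselves (fewer genes, fewer libraries, a shared spread), the cause was not tested. A sign-flip test on the 3 differences within replicate numbers cannot go below p = 0.25 (exact), so for the ratio and the summed level the pairing gives a value without a call. With 3 libraries in a group, a fold change whose interval spans 0 was not resolved, and that does not show equal levels. Camkk1, with the fewest counts, had the widest counting error of the 10 genes.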
